A study of Rattus norvegicus with 54 samples.

Results

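A set of 5 genes of inhibitory neurons was followed through cultures of rat cortical neurons: Gad1 and Gad2, which encode the enzymes of GABA synthesis, and Calb1, Calb2 and Pvalb, which encode the calcium-binding proteins calbindin, calretinin and parvalbumin. They were found in the count table by Ensembl identifier and checked against the expected chromosome, and 5 of 5 were present among 30560 genes. All 5 passed the filter on low counts, as did 17172 genes in all. The cultures came from the cortex of embryos at day 18 of gestation and are labelled neurons, and mRNA was sequenced from 54 libraries. There were 3 constructs: none (untransfected), AAV_SYN_GFP (called GFP here), an adeno-associated virus with GFP, and AAV_SYN_rMBD3_GFP (called rMBD3 here), the virus for overexpression of Mbd3. SYN, the promoter named for both viruses, is that of the neuronal gene synapsin, and GFP is carried by both. Each construct was kept in medium with Mg, the standard condition, or in medium without Mg, the condition labelled epileptic, and sampled at 2, 6 and 24 h. This made 18 groups of 3 libraries, numbered 1 to 3 by cell culture. The series asks what Mbd3 does in epileptogenesis.

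GABA is the main inhibitory transmitter of the cortex. Gad1 and Gad2 encode separate glutamate decarboxylases that make it from glutamate; the Gad1 enzyme is found through the whole cell and the Gad2 enzyme mostly at nerve terminals. Calbindin, calretinin and parvalbumin bind calcium ions in the cytoplasm and serve as classical markers of partly separate cortical interneuron classes, although calbindin and calretinin also occur in other neurons, and parvalbumin appears late in cortical development. Mbd3 belongs to the methyl-CpG binding domain family and is a subunit of the NuRD chromatin remodelling complex.

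The start regions of the synthesis genes are shown as a description of their letters. CpG is counted because the protein family of the overexpressed gene is named for it. Of the 5 genes, 3 were matched in the RefSeq promoter table (GRCr8 build): Gad1, Gad2 and Pvalb. Both stretches below are on the plus strand, 5′ to 3′, and end at the base before the first annotated base of the gene. For Gad1, at chr3:75777202-75777259, capitals mark the letters TATAAA, and for Gad2, at chr17:89671468-89671717, capitals mark each CpG.
Gad1: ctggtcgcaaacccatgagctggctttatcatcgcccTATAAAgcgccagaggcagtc
Gad2: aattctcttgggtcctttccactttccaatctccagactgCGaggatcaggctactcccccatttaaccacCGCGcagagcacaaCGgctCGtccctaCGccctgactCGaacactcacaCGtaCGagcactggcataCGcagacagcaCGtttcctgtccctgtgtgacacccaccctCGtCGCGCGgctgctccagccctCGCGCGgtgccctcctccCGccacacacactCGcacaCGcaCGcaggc
The Gad1 window of 300 bases held 1 match to TATAAA, searched on both strands, and the Gad2 and Pvalb windows held 0; 14.2% of 33469 promoters of that length held at least 1. The Gad1 window held 26 CpG, that of Gad2 29 and that of Pvalb 23, against a median of 7 over all promoters, and 84.8%, 88.5% and 80.5% of promoters held fewer. Most of the Gad1 window lies past the first annotated base: the 58 bases printed before it held 3 CpG. The 250 bases printed for Gad2 held 22. The palindrome TGACGTCA had 0 matches in these 3 windows and was present in 1.83% of promoters. Methylation and factor binding were not measured, and these matches are descriptions of the letters. A link of these letters to Mbd3 or to the fall with time was not tested.

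In the count table, on mRatBN7.2, Gad1 (ENSRNOG00000000007) lies on the plus strand of chromosome 3 from 55369704 to 55410333 with 3391 exonic bases, and Gad2 (ENSRNOG00000018200) on the plus strand of chromosome 17 from 84763628 to 84826155 with 1967. Calb1 (ENSRNOG00000007456) lies on the plus strand of chromosome 5 from 29375642 to 29402431 with 2107 exonic bases. Calb2 (ENSRNOG00000016977) lies on the minus strand of chromosome 19 from 38114424 to 38141438 with 1729. Pvalb (ENSRNOG00000006471) lies on the minus strand of chromosome 7 from 109772593 to 109784561 with 1267. Counts cover the merged exons of each gene, and 0 other genes overlapped any of the 5 on either strand.

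Total counts per library ran from 14448927 to 39691105. A count of 3, taken as the floor, corresponded to 0.0756 to 0.208 CPM, the library-scaled count used below. Counts per library were 267 to 12717 for Gad1, 245 to 4188 for Calb2, 62 to 1199 for Calb1, 11 to 3161 for Gad2 and 5 to 102 for Pvalb, so Pvalb carried the largest counting error. Some libraries stood apart for these genes. The untransfected cultures of number 1 in medium with Mg held 235.8, 342.8 and 426.4 CPM of Gad1 at 2, 6 and 24 h, whereas the other 2 libraries of each group held 98.5 and 81.2, 44.8 and 25.2, and 12.1 and 34.4 CPM. Gad2 was at 102, 114.8 and 106 CPM in the same 3 libraries, and some of the results below are also given without them. Library number 1 was the highest of its group for Gad1, Gad2 and Calb1 in 12 of 12 groups at 6 and 24 h, which held for 1.72% of the genes tested. At 2 h it was the highest in 3, 2 and 3 of 6 groups. The mitochondrial share of counts moved with that number: at 6 h its mean was 3.58% in cultures numbered 1, 2.08% in those numbered 2 and 2.69% in those numbered 3, and in the 3 libraries named above it was 3.42, 4.90 and 3.16%. Its part in the results was not tested.

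Compared per kilobase of exon, the median level over the 54 libraries was highest for Calb2, at 35.1 CPM per kb, followed by Gad1 at 22.3, Calb1 at 8.23, Gad2 at 6.20 and Pvalb at 1.01. On that scale 88.0% of the genes tested lay below Calb2, 80.4% below Gad1, 59.05% below Calb1, 53.4% below Gad2 and 28.7% below Pvalb. The order at 2 h was Calb2 (62.4 ± 12.1, SD, n = 18 at each time), Gad1 (32.5 ± 10.3), Gad2 (15.2 ± 9.47), Calb1 (11.7 ± 4.33) and Pvalb (0.811 ± 0.54), all as mean CPM per kb. At 24 h the means were 21.4 ± 22.4 for Calb2, 15.5 ± 28.7 for Gad1, 7.15 ± 7.06 for Calb1, 5.36 ± 12.4 for Gad2 and 1.51 ± 1.01 for Pvalb. Gad2 and Calb1 differed by less than their SD at both times, as did Calb2 and Gad1 at 24 h. In bulk cultures, fewer cells of a type and less RNA per cell cannot be told apart.

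**Figure D1:**
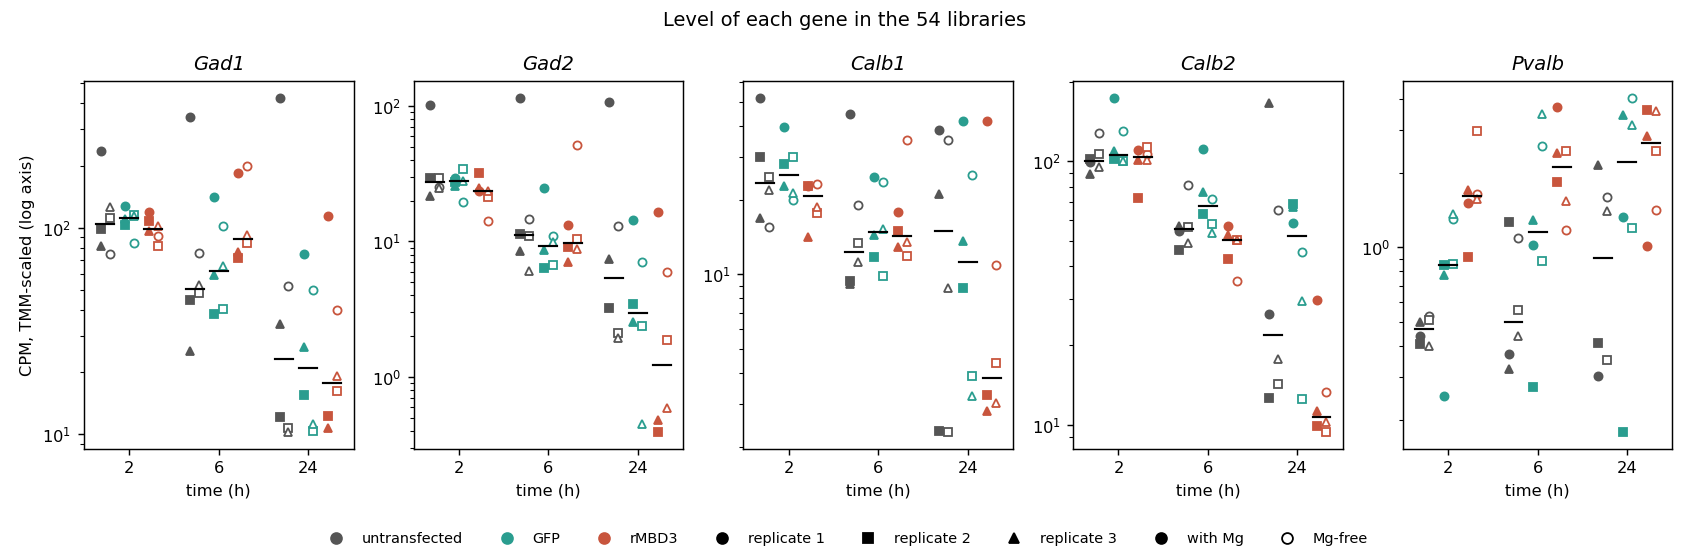
TMM-scaled level (CPM, log axis, a separate scale per gene) of each gene in the 54 libraries by time, with colour for the construct, symbol shape for the replicate number, filled symbols for medium with Mg and open symbols for medium without Mg; bars are medians of 6 libraries. Calb2 is lower at 24 h in nearly all libraries, and the filled grey circles (untransfected, with Mg, number 1) stay at 235.8 to 426.4 CPM for Gad1.

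Both GABA synthesis genes were lower at 24 h than at 2 h. Gad1 ran from 74.5 to 235.8 CPM at 2 h (median 105.8, n = 18), from 25.2 to 342.8 at 6 h (median 73.5) and from 10.3 to 426.4 at 24 h (median 17.7). Most 24 h libraries lay below every 2 h library, and the ranges overlapped through 2 libraries numbered 1, at 114.2 and 426.4 CPM. Averaged over constructs and media, Gad1 fell by 1.45 on the log2 scale (SE 0.37, edgeR quasi-likelihood test, adjusted p = 0.000673), and 17 of 18 matched cultures were lower. Without the 3 libraries that stood apart its log2 difference was -1.81 (edgeR adjusted p = 2.32e-06). Without all cultures numbered 1 it was -2.73, and without those numbered 3 it was -1.13 and no longer passed (edgeR adjusted p = 0.0593).

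Gad2 went from 14.2 to 102 CPM at 2 h (median 25.4, n = 18) and 6.08 to 114.8 at 6 h (median 10.1) to 0.393 to 106 at 24 h (median 2.88). At 24 h the cultures numbered 2 and 3 held 0.393 to 7.46 CPM, all below the lowest 2 h library, while 5 of the 6 numbered 1 held 5.97 to 16.5 and the sixth 106. It fell, with a log2 difference of -2.12 (SE 0.46, edgeR adjusted p = 8.36e-05), lower in 17 of 18 matched cultures, -2.43 without the 3 libraries and -3.91 without number 1. In this comparison 5 of 5 genes passed the threshold, 4 lower and 1 higher, beside 69.5% of all genes tested, of which 35.3% were lower and 34.2% higher. The median log2 difference was -1.45 over the 5 genes and 0.02 over all genes tested. With so many genes past the threshold, the passing of the 5 is no mark of these genes.

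Between 2 and 6 h, Calb2 passed the threshold and the other 4 did not, beside 49.1% of all genes. Gad1 had a log2 difference of -0.24 (SE 0.36, edgeR adjusted p = 0.608), and without number 1 it was -0.84 and passed, beside 9767 genes in that fit. Gad2 had -0.89 (SE 0.44, edgeR adjusted p = 0.0898). With the replicate number as a block, where 54.7% of all genes passed, Gad2 passed at -1.26 (edgeR adjusted p = 0.00106). Without the 3 libraries, where 8585 genes passed, Gad2 passed at -1.09 (edgeR adjusted p = 0.018). Between 6 and 24 h Gad1 fell by 1.21 (SE 0.37, edgeR adjusted p = 0.00604) and Gad2 by 1.23 (SE 0.45, edgeR adjusted p = 0.0204) on the log2 scale, as 2 of the 3 genes that passed, all lower, beside 50.6% of all genes (26.3% lower and 24.3% higher). Both calls were lost without number 2 and without number 3, with log2 differences of -1.02 to -1.08.

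The numbered cultures showed unequal differences. On the scale of log2(CPM + 0.1), the mean difference of the 6 matched series between 24 and 2 h for Gad1 was -0.41 in cultures numbered 1, -3.00 in those numbered 2 and -2.63 in those numbered 3. For Gad2 the same means were -0.85, -3.85 and -4.11. Calb1 stood at 0.16, -2.72 and -1.56, so cultures numbered 1 had no lower mean at 24 h. Calb2 did not divide this way, at -1.81, -2.65 and -1.74. Pvalb, higher at 24 h on average, stood at 0.64, -0.02 and 1.41, so the mean of cultures numbered 2 was not higher. The difference between numbers was not tested. The edgeR p-values for time treat all libraries as independent, although the series come from 3 numbered cultures.

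**Figure D2:**
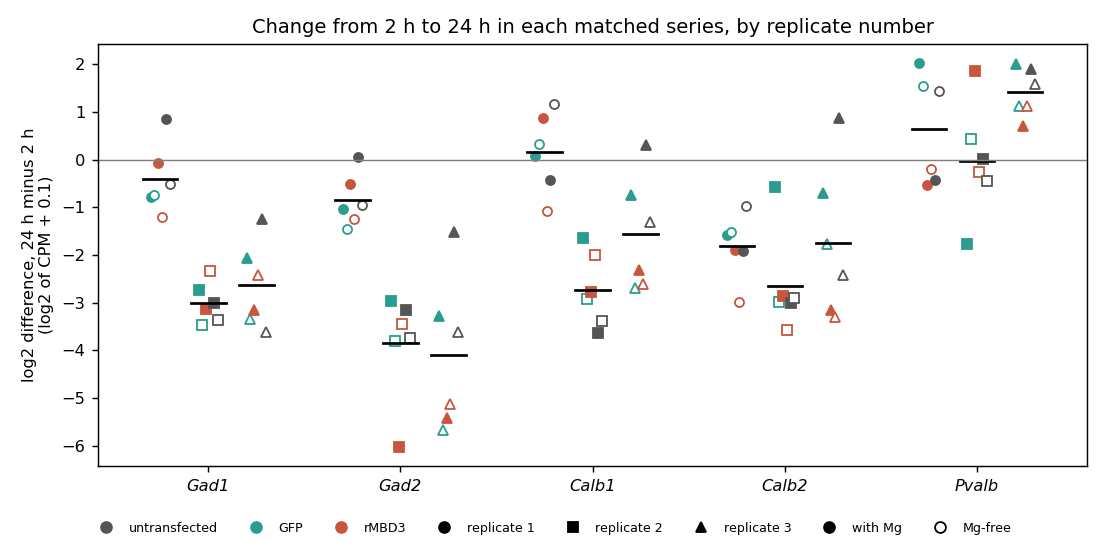
Difference between 24 and 2 h on the scale of log2(CPM + 0.1) in each of 18 matched series (same construct, medium and culture number) per gene, grouped from left to right by replicate number 1, 2 and 3; bars are means of 6 series and the line marks no difference. For Gad1, Gad2 and Calb1 the series numbered 1 sit above most of those numbered 2 and 3, while the Calb2 series overlap.

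By construct, Gad1 and Gad2 were lower at 24 h in most matched series of each. In GFP cultures all 6 libraries at 24 h lay below all 6 at 2 h for Gad1 (10.4 to 74.4 against 84.5 to 127.4 CPM), Gad2 (0.451 to 14.3 against 19.6 to 34.3 CPM) and Calb2, a separation that 20.7% of all genes showed in that direction. In rMBD3 cultures Gad1 was at 10.8 to 114.2 CPM at 24 h (median 17.7) and 82.0 to 118.9 at 2 h (median 99.1). Gad2 in rMBD3 cultures was at 0.393 to 16.5 CPM (median 1.23) and 14.2 to 32.03 CPM (median 23.7) at these times, so both genes overlapped through the library numbered 1 in medium with Mg. In untransfected cultures Gad1 was lower at 24 h in 5 of 6 matched series and Gad2 in 5 of 6.

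The ratio of the enzymes' transcripts also moved. Per kilobase, Gad1 stood above Gad2 in 54 of 54 libraries. The Gad1 to Gad2 ratio was 1.34 to 3.75 at 2 h (median 2.24, n = 18), 1.72 to 8.04 at 6 h (median 3.67) and 2.19 to 18.9 at 24 h (median 3.48). Across the 18 matched series the log2 ratio was higher at 24 h than at 2 h by 1.00 (SD 1.06) and in 18 of 18 series (two-sided sign-flip permutation test, p = 2e-05, the smallest that 100000 resamples can give, and adjusted over 3 comparisons p = 6e-05). From 2 to 6 h it was higher by 0.68 (SD 0.59) in 16 of 18 series (permutation test, p = 0.00054, adjusted p = 0.00081). From 6 to 24 h the difference was 0.32 (SD 0.89), higher in 10 of 18 (permutation test, p = 0.145, adjusted p = 0.145). The test flipped the 18 series separately, although they come from 3 numbered cultures and are not independent. The ratio was also chosen after its values were seen. Its p-values therefore serve as a description and are not evidence from 18 independent cultures. By number, the difference between 24 and 2 h was 0.45, 0.94 and 1.61. At 24 h the ratio was 2.19 to 3.07 in untransfected cultures (n = 6, median 2.502), 2.54 to 14.4 in GFP cultures (median 3.56) and 3.88 to 18.9 in rMBD3 cultures (median 9.04). All 6 rMBD3 values were above the 6 untransfected ones. The constructs were not tested for this ratio, and such a separation was not counted for other pairs of genes. The 4 highest ratios, 13.1 to 18.9, rest on Gad2 counts of 11 to 15, where the counting error is large.

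**Figure D3:**
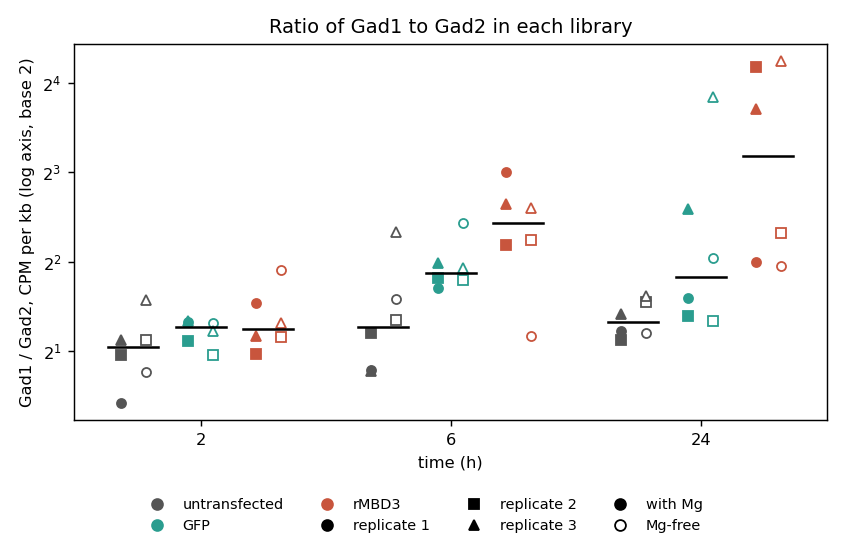
Gad1 to Gad2 ratio (CPM per kb over CPM per kb, log axis with base 2) in each of the 54 libraries by time, coloured by construct, with shapes for the replicate number and open symbols for medium without Mg; bars are medians of 6 libraries. Medians over all constructs were 2.24, 3.67 and 3.48 at 2, 6 and 24 h. The highest value, 18.9 at 24 h, was from an rMBD3 library with a Gad2 count of 15.

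Among the calcium-binding genes, Calb2 (calretinin) fell at each step. Its level was 72.3 to 174.3 CPM at 2 h (median 102, n = 18), 35.2 to 111.3 at 6 h (median 55.4) and 9.37 to 165.8 at 24 h (median 21.9). The 24 h values spread widely: the highest, 165.8, was the untransfected library with Mg numbered 3, which also had a mitochondrial share of 4.90%, and the next was 68.8. The log2 difference was -0.89 from 2 to 6 h (SE 0.21, edgeR adjusted p = 0.000568), with 18 of 18 matched cultures lower. From 6 to 24 h it was -0.94 (SE 0.21, edgeR adjusted p = 0.000328) and from 2 to 24 h -1.82 (SE 0.22, edgeR adjusted p = 1.19e-09), lower in 16 and 17 of 18. In 8 of 8 alternatives each of these 3 calls held.

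Calb2 was also lower in rMBD3 than in GFP cultures. At 24 h in medium with Mg the 3 GFP libraries held 58.4, 68.8 and 67.3 CPM and the 3 rMBD3 libraries 29.8, 9.90 and 11.2. In medium without Mg the GFP libraries held 45.2, 12.5 and 29.4 CPM and the rMBD3 libraries 13.3, 9.37 and 10.2. In each medium and number the rMBD3 library was the lower, and the groups of 6 overlapped through 2 GFP libraries, at 12.5 and 29.4 CPM, below the highest rMBD3 library at 29.8. The untransfected libraries at 24 h held 26.2, 12.6 and 165.8 CPM with Mg and 65.2, 14.2 and 17.7 without. Their median of 21.9 CPM lay between those of GFP (51.8) and rMBD3 (10.7) cultures. GFP against untransfected cultures was not tested at 24 h alone. The log2 difference between rMBD3 and GFP at 24 h was -1.67 (SE 0.38, edgeR adjusted p = 0.024), a 3.18-fold lower level, and 0.949% of all genes passed in this comparison. Without the cultures numbered 2 or 3 the difference was -1.63 or -1.53 and did not pass (edgeR adjusted p = 0.14 and 0.433), in fits with 2 libraries per group.

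At 2 h the Calb2 difference between rMBD3 and GFP was -0.24 (SE 0.36, edgeR adjusted p = 0.896) and at 6 h -0.58 (SE 0.36, edgeR adjusted p = 0.665), with 4 and 6 of 6 matched cultures lower. None of the 5 genes passed at these times, beside 0.874% of all genes at 2 h and 0.221% at 6 h. The rMBD3 difference at 24 h minus that at 2 h was -1.42 (SE 0.52), which did not pass (edgeR adjusted p = 0.502); 0.0175% of all genes did. Averaged over times and media, Calb2 was lower in rMBD3 than in GFP cultures by 0.83 on the log2 scale (log2 difference -0.83, SE 0.21, edgeR adjusted p = 0.00837), in 16 of 18 matched cultures. It was 1 of 5 genes that passed in that comparison, beside 11% of all genes. Without number 3 the value was -0.84 and its call was lost (edgeR adjusted p = 0.0794).

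Against untransfected cultures, Calb2 in rMBD3 cultures had a log2 difference of -0.69 (SE 0.21, edgeR adjusted p = 0.032), lower in 11 of 18 matched cultures. This call held in 5 of 9 alternatives and was lost without each of the 3 numbers and without the filter on low counts; without number 3 the value was -0.45 (edgeR adjusted p = 0.493). GFP and untransfected cultures differed in Calb2 by 0.14 (95% confidence interval -0.29 to 0.56, edgeR adjusted p = 0.959). The GFP library was the higher in 13 of 18 matched cultures. In rMBD3 cultures Calb2 at 24 h (9.37 to 29.8 CPM) lay wholly below 2 h (72.3 to 113.0 CPM), as 18.2% of all genes did.

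Calb1 (calbindin) had the least settled time course. It ran from 14.2 to 51.96 CPM at 2 h (median 22.8, n = 18), 9.11 to 44.6 at 6 h (median 13.99) and 2.30 to 41.9 at 24 h (median 8.84). At 24 h the cultures numbered 1 held 10.95 to 41.9 CPM, those numbered 2 2.30 to 8.85 and those numbered 3 2.80 to 21.1, and the number 1 range overlapped that at 2 h. The log2 difference between 24 and 2 h was -0.79 (SE 0.35, edgeR adjusted p = 0.0412), lower in 13 of 18 matched cultures. This call held in 3 of 8 alternatives, with values from -1.94 without number 1 to -0.31 without number 2 (edgeR adjusted p = 0.542). With another scaling, DESeq2 or no filter on low counts the adjusted p was 0.0527 to 0.0654. Without number 3 the value was -0.63 (edgeR adjusted p = 0.288), and without the 3 libraries that stood apart it was -0.85 (edgeR adjusted p = 0.0295).

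Neither shorter interval passed for Calb1: the log2 difference was -0.48 from 2 to 6 h (SE 0.35, edgeR adjusted p = 0.258) and -0.31 from 6 to 24 h (SE 0.35, edgeR adjusted p = 0.471). The first passed with the replicate number as a block, at -0.65 (edgeR adjusted p = 0.0299). Both passed without number 1, at -0.81 and -1.14, beside 9767 and 10244 genes in that fit. Between constructs Calb1 had log2 differences of -0.32 (rMBD3 against GFP, 95% confidence interval -1.02 to 0.38) and -0.09 (GFP against untransfected, -0.79 to 0.61), neither of which passed.

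Pvalb (parvalbumin) went the other way, from a low level. It was at 0.25 to 2.96 CPM at 2 h (median 0.853, n = 18), 0.271 to 3.71 at 6 h (median 1.22) and 0.179 to 4.03 at 24 h (median 1.51). These ranges overlapped almost fully. Pvalb rose between 2 and 24 h by 1.00 on the log2 scale (SE 0.30, edgeR adjusted p = 0.00333), higher in 12 of 18 matched cultures. Without number 3, whose cultures held 1.41 to 3.56 CPM at 24 h, the value was 0.49 and the call was lost (edgeR adjusted p = 0.314). The steps from 2 to 6 h (0.53, SE 0.30) and from 6 to 24 h (0.47, SE 0.30) did not pass (edgeR adjusted p = 0.147 and 0.184).

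Mean Pvalb levels were also ordered by construct at 2 h. At 2 h the untransfected libraries held 0.438, 0.408 and 0.498 CPM with Mg and 0.529, 0.508 and 0.399 without. The GFP libraries held 0.25, 0.845 and 0.775 CPM with Mg and 1.30, 0.86 and 1.37 without. The rMBD3 libraries held 1.52, 0.913 and 1.70 CPM with Mg and 1.64, 2.96 and 1.57 without, all above every untransfected library, as for 0.745% of all genes. At 24 h the untransfected range of 0.302 to 2.15 CPM overlapped the rMBD3 range of 1.02 to 3.61, and the GFP range was 0.179 to 4.03. Without Mg the GFP mean exceeded the rMBD3 mean at 6 h (2.30 against 1.73 CPM) and at 24 h (2.79 against 2.47). With Mg the GFP mean was the lower at 6 h (0.861 against 2.65 CPM) and at 24 h (1.65 against 2.49).

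Averaged over times and media, Pvalb was 3.02-fold higher in rMBD3 than in untransfected cultures, a log2 difference of 1.60 (SE 0.31, edgeR adjusted p = 0.000426), in 17 of 18 matched cultures. It was 1 of 2 of the 5 genes that passed in this comparison, Calb2 being the other, beside 8.65% of all genes (4.27% higher and 4.38% lower). The call held in 9 of 9 alternatives, with values from 1.48 to 1.73. GFP cultures stood between on this average over times and media. Their Pvalb level was above that of untransfected cultures by 1.00 on the log2 scale (SE 0.30, 15 of 18 matched cultures higher), which did not pass (edgeR adjusted p = 0.142). DESeq2, which called 280 genes for GFP against untransfected, put the adjusted p of Pvalb at 0.0496. The level in rMBD3 was above that in GFP cultures by 0.59 (SE 0.30, 95% confidence interval -0.01 to 1.19, 13 of 18 higher), which did not pass either (edgeR adjusted p = 0.199). By culture number 1, 2 and 3 its mean matched difference was 0.24, 1.71 and 0.15 on the scale of log2(CPM + 0.1). These comparisons share libraries, and against untransfected cultures the part of the virus itself cannot be told apart from that of rMBD3.

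**Figure D4:**
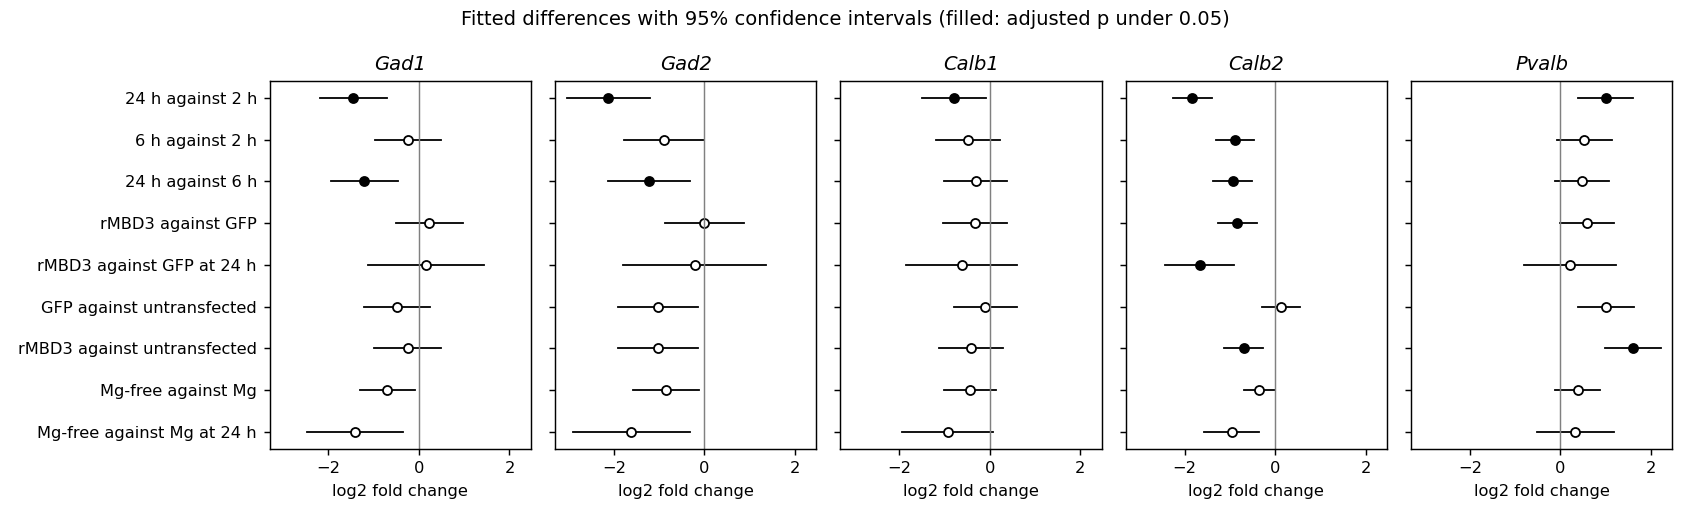
Log2 fold change of each gene in 9 comparisons, fitted with edgeR to all 54 libraries, with 95% confidence intervals; filled points passed an adjusted p of 0.05 over 17172 genes. Calb2 is below 0 in each time comparison and in rMBD3 cultures, Pvalb lies furthest above 0 for rMBD3 against untransfected (1.60), and no point is filled for the medium.

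The synthesis genes did not pass in any comparison of constructs. Gad1 had a log2 difference of 0.23 between rMBD3 and GFP (95% confidence interval -0.50 to 0.96, edgeR adjusted p = 0.749) and Gad2 one of 0.00 (-0.87 to 0.87, edgeR adjusted p = 1.00). At 6 h Gad1 was higher in the rMBD3 culture in 6 of 6 matched pairs, with 71.8 to 199.7 CPM against 38.4 to 140.4, and the log2 difference of 0.67 (SE 0.63) did not pass (edgeR adjusted p = 0.809). At 24 h Gad2 had a difference of -0.22 (SE 0.78, edgeR adjusted p = 0.939). Without number 1 it was -1.49 and passed (edgeR adjusted p = 0.0203), in a fit where 1766 genes passed, against 163 in the main fit. Cultures numbered 2 and 3 held 0.393 to 1.87 CPM in rMBD3 and 0.451 to 3.44 in GFP at 24 h.

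None of the 5 genes passed between GFP and untransfected cultures, beside 0.297% of all genes. Gad2 was lower in both transduced sets, by log2 differences of -1.03 (GFP, SE 0.44, edgeR adjusted p = 0.394) and -1.03 (rMBD3, SE 0.44, edgeR adjusted p = 0.15). Without the 3 libraries that stood apart these were -0.02 and -0.02. Without all cultures numbered 1, which also removes high values from the transduced sets, they were -0.26 and -0.75, and the second passed (edgeR adjusted p = 0.0121). That fit called 2399 genes for rMBD3 against untransfected, and the main fit 1485. Gad1 went from -0.48 to 0.41 (GFP) and from -0.25 to 0.64 (rMBD3) when the 3 libraries were left out. For rMBD3 against untransfected, Gad2 passed with a block for each time and number, at -0.98 (edgeR adjusted p = 0.00382), as the third of the 5 genes beside 19.7% of all genes.

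Between media none of the 5 genes passed the threshold, and 0 of 17172 genes passed with edgeR without a block (0% at each time and over all times; 1565 genes had an unadjusted p under 0.05 over all times and 1988 at 24 h, and DESeq2 called 10 and 103 genes). With a block for each time and number edgeR called 429 genes over all times and 1186 at 24 h, and with the replicate number as a block 0 and 36. At 24 h Gad1 was at 10.3 to 52.02 CPM without Mg (median 16.2, n = 9) and 10.8 to 426.4 with Mg (median 26.3). Its log2 difference was -1.42 (SE 0.52, edgeR adjusted p = 0.294), lower in 7 of 9 matched cultures, and -0.50 without the 3 libraries that stood apart. Gad2 was at 0.451 to 13.1 CPM (median 2.13) and 0.393 to 106 CPM (median 3.44), with a log2 difference of -1.61 (SE 0.64, edgeR adjusted p = 0.332) that was -0.65 without the 3 libraries.

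Calb2 at 24 h was at 9.37 to 65.2 CPM without Mg (median 14.2, n = 9) and 9.90 to 165.8 with Mg (median 29.8). Its difference was -0.95 (SE 0.30, edgeR adjusted p = 0.238), again lower in 7 of 9 matched cultures, and -1.08 without the 3 libraries. These do not include the library at 165.8 CPM, untransfected with Mg and numbered 3, and no fit left out that library alone. In untransfected cultures Calb2 was higher without Mg for number 1 (65.2 against 26.2 CPM) and number 2 (14.2 against 12.6). For number 3 it was lower (17.7 against 165.8 CPM). With a block for each time and number, which counts the numbered cultures of 1 time as matched, 2 of the 5 genes passed at 24 h, beside 6.91% of all genes: Gad1 at -0.94 (edgeR adjusted p = 0.032) and Calb2 at -1.001 (edgeR adjusted p = 0.0225). Calb2 also passed without number 1, at -1.42 (edgeR adjusted p = 0.0445), where 176 genes passed. The library at 165.8 CPM was still in both fits. Calb1 at 24 h had -0.93 (SE 0.50) and Pvalb 0.33 (SE 0.42), neither past the threshold.

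At 2 and 6 h the medium differences of the 5 genes lay between -0.46 and 0.53 on the log2 scale, with edgeR adjusted p of 1.00 each. The 24 h medium difference minus that at 2 h was -1.16 for Gad1 (SE 0.73), -1.15 for Gad2 (SE 0.88), -0.60 for Calb1 (SE 0.69), -0.997 for Calb2 (SE 0.42) and -0.20 for Pvalb (SE 0.60), and none passed (edgeR adjusted p = 1.00 each). The rMBD3 difference without Mg minus that with Mg was largest for Pvalb, at -1.04 (SE 0.59, edgeR adjusted p = 1.00), and 0 genes passed in that comparison or the one before.

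Across the 18 group means of log2 CPM, Gad1 and Gad2 had a Pearson r of 0.92, Gad2 and Calb1 0.92, Calb1 and Calb2 0.94, and Gad1 and Calb2 0.81. Pvalb had r of -0.36 with Gad1, -0.60 with Gad2, -0.55 with Calb1 and -0.52 with Calb2. These values describe group means that share time points and numbered cultures. Among 17171 other genes Gad2 ranked 237 for likeness to Gad1, so many genes followed Gad1 more closely than its partner did. The gene most like Calb2 was ENSRNOG00000029165 (r = 0.997), which fell by 1.59 on the log2 scale between 2 and 24 h (SE 0.20, edgeR adjusted p = 3.94e-09). The gene most like Pvalb was ENSRNOG00000013668 (r = 0.90), which rose by 1.02 over the same interval (SE 0.27, edgeR adjusted p = 0.00106).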

How the data were processed

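The series holds 54 RNA-seq libraries of rat E18 cortical neuron cultures, in 18 groups of 3. The deposited file used here holds raw read counts per gene; per the file headers, they were made with featureCounts 2.0.0 with strand setting 2, a minimum mapping quality of 3 and the Ensembl release 105 annotation of mRatBN7.2. Per the labels' protocols, libraries were stranded mRNA, aligned with STAR to rn6, and tested with DESeq2; the protocol and the header thus name different builds, and coordinates of genes follow the header. Per the submitters' processing notes, Trim Galore, Salmon and SAMtools were also used. Strand-aware counting separates antisense overlaps. A second deposited table, of log2 values, was not used.

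From the counts, TMM factors were computed and filterByExpr (count of 10, total of 15 at least) left 17172 genes. The robust quasi-likelihood fit of edgeR 4.0.16 (R 4.3.3) had a mean for every one of the 18 groups, used the 54 libraries together and had no block. Contrasts gave conditions equal weight, with Benjamini-Hochberg adjustment over the 17172 genes and a threshold of 0.05. CPM values are TMM-scaled. Matched differences used log2(CPM + 0.1). The fits were run on simulated counts with known changes. These were drawn independently for each library, so effects shared by a numbered culture were not covered. The floor of 3 counts covers counting error only, since reads had no molecular identifiers. The SE of a log2 difference was derived from its edgeR value and F statistic, and the 95% confidence interval from that SE and a t quantile. Both include the spread between libraries and can be unstable for very small differences. Libraries of 1 group were checked for duplicates, and their chi-square per gene of 9.76 to 358 showed none.

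The 5 genes, the lists and the alternatives were chosen with earlier results of these data known. All 5 genes are named; of the 2 genes per member most alike in pattern (highest Pearson r over the 18 group means of log2 CPM, prior count 2), the first for Calb2 and for Pvalb are printed. The count table has no gene symbols, so planned lists of other interneuron, transporter and cell type genes, and the Mbd3 transcript as a check of the overexpression, were not analysed here. The numbers 1 to 3 pair the samples because the labels give them as the cell culture: the mean correlation of deviations from the group means was 0.188 between same-numbered libraries of different groups and -0.09 between differently numbered ones. The labels do not say whether equal numbers share embryos. The p-values of the main edgeR fit measure the spread between libraries within groups. That fit had no block and treated same-numbered libraries of different groups as independent, although their deviations were correlated. Its p-values therefore do not take the 3 numbered cultures as the units, and small values are not evidence from many independent cultures. The other settings were DESeq2 1.42.0, relative log expression (RLE) factors, all genes with any count, blocks by replicate number (over all times or within each), and omission of every number in turn. Leaving out the 3 untransfected libraries with Mg of number 1 was added after seeing the data.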

Additional observations from a re-analysis of the deposited data

How the results depend on the processing

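With the replicate block, 458, 243 and 1131 genes passed for rMBD3 against GFP at 2, 6 and 24 h (150, 38 and 163 without it), 2992 over all times (1886), 230 for GFP against untransfected (51), 2259 for rMBD3 against untransfected (1485), 36 for the medium at 24 h (0) and 6 for the rMBD3 difference at 24 h minus 2 h (3). Of the 5 genes, 3 in place of 1 passed for 6 against 2 h, beside 9387 of all 17172 genes (54.7%), and the block changed no other call of these genes. With the replicate block within each time point the same comparisons gave 1034, 533, 2174, 4083, 501, 3380, 1186 and 25 genes, the medium over all times gave 429 and the rMBD3 difference between media 1; 2 of the 5 genes passed for the medium at 24 h. The time comparisons were left out of that setting. Without the 3 libraries, 226, 88 and 282 genes passed for rMBD3 against GFP at 2, 6 and 24 h and 26 for GFP against untransfected, and 2 of the 5 genes passed for 6 against 2 h, beside 8585 genes. DESeq2 gave 382, 189 and 590 genes for rMBD3 against GFP at the 3 times, 280 for GFP against untransfected (41 higher and 239 lower, against 15 and 36 with edgeR) with 1 of the 5 genes, 10 for the medium, 1 and 103 for the medium at 2 and 24 h, 11 for the rMBD3 difference at 24 h minus 2 h and 5 for the medium difference at 24 h minus 2 h. RLE factors gave 67 genes for rMBD3 against GFP at 6 h and 1 for the medium at 24 h. With no low-count filter, 24 and 70 genes passed for rMBD3 against GFP at 6 and 24 h, and 1 of the 5 genes for rMBD3 against untransfected, beside 1242 genes.

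Leaving out each replicate number in turn gave 9852 to 12781 genes for 24 against 2 h, 5179 to 9767 for 6 against 2 h, 5413 to 10244 for 24 against 6 h, 309 to 2468 for rMBD3 against GFP, 1 to 215, 1 to 51 and 1 to 1766 for that comparison at 2, 6 and 24 h, 0 to 25 for GFP against untransfected, 322 to 2399 for rMBD3 against untransfected, 0 to 176 for the medium at 24 h and 0 to 54 for the rMBD3 difference at 24 h minus 2 h. Of the 5 genes, 2 to 5 passed for 24 against 2 h, 1 to 4 for 6 against 2 h, 1 to 4 for 24 against 6 h, 0 to 1 for rMBD3 against GFP, 0 to 2 for it at 24 h, 1 to 2 for rMBD3 against untransfected and 0 to 1 for the medium at 24 h. These fits have 2 libraries per group; for the other changes the cause was not tested.

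Changes of sign concerned values that had not passed. Without 1 replicate number, the range of log2 differences of Gad1 was -0.84 to 0.0042 for 6 against 2 h, -0.093 to 0.17 for rMBD3 against GFP at 24 h, -0.62 to 0.10 for GFP and -0.34 to 0.24 for rMBD3 against untransfected, -0.50 to 0.11 and -0.62 to 0.31 for the medium at 2 and 6 h, and -0.10 to 0.48 for the rMBD3 difference between media. Gad2 ranged from -0.49 to 0.065 for rMBD3 against GFP, from -1.33 to 0.20 for that difference at 24 h minus 2 h, and from -0.57 to 0.062 for the medium at 6 h. Pvalb ranged from -0.073 to 0.71 for 24 against 6 h, from -0.42 to 0.63 for rMBD3 against GFP at 24 h, from -0.12 to 1.00 for the medium at 24 h and from -0.54 to 0.28 for the medium difference at 24 h minus 2 h. Calb1 ranged from -0.14 to 0.0081 for GFP against untransfected and from -0.12 to 0.075 for the medium at 6 h, and Calb2 from -0.027 to 0.092 for the medium at 2 h. Without the 3 libraries, Gad1 stood at 0.41 and 0.64 for GFP and rMBD3 against untransfected and 0.24 for the medium at 6 h, Gad2 at 0.27 for the last, and Calb1 at 0.32, 0.0018 and 0.33 for the same 3 comparisons. Gad2 for rMBD3 against GFP was 0.012 with RLE factors and 0.0096 with DESeq2, and its rMBD3 difference at 24 h minus 2 h was -0.26 with the replicate block and -0.47 with the block within each time point. Pvalb had 5 to 102 counts per library, and Gad2 at 24 h had 11 to 3161. The part of counting error in these changes was not tested.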
